A study of Homo sapiens with 40 samples.

Results

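Wide H3K9me3 domains of control cells were defined as the H3K9me3 peaks of at least 20000 bp in the list from control A549 cells, and 688 of its 102976 peaks met that width. A549 is an established human lung adenocarcinoma line. One group carried the label Control (CT), and the other was SETDB1 knockout (KO), disrupted by CRISPR/Cas9 from the PX458 plasmid; the labels do not say whether the KO cells were 1 clone or a pool. Each genotype had 1 peak list for each of H3K9me3, H3K4me3, H3K27ac, H3K27me3 and CTCF, each mark with 2 libraries in the labels (the KO H3K4me3 libraries have a digit missing from the mark in their titles and were grouped by their description), together with 2 Hi-C libraries and 3 RNA-seq libraries. The labels do not say that replicates were separate cultures, so p-values measure only the spread between these libraries. The domains were chosen by their width in the control list, so widths are given as a description.

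H3K9me3 is a histone mark of heterochromatin, the compacted and largely silent part of the genome. SETDB1 is a methyltransferase that places it, and it is brought to its targets mainly by KRAB zinc finger proteins through the co-repressor TRIM28. Human chromosome 19 carries large clusters of the KRAB zinc finger genes themselves, which are a known site of broad H3K9me3. H3K4me3 marks promoters, H3K27ac marks active promoters and enhancers, H3K27me3 is the mark of Polycomb repression, and CTCF is the DNA-binding protein found at many chromatin loop anchors.

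SETDB1 mRNA was measured first as a check of the genotype labels. It stood at 37.5, 39.6 and 38.8 CPM, counts per 1000000 counts after scaling of the library size, in the 3 control libraries and at 23.4, 21.2 and 21.1 CPM in the 3 KO libraries. The KO libraries were all below the control libraries, and the mean level in KO was 56.8% of control (log2 fold change -0.82 ± 0.06 SE, edgeR quasi-likelihood test, adjusted p = 1.7e-12). In bulk libraries, fewer expressing cells and less RNA per cell cannot be told apart, and the mRNA level does not measure the protein. RNA-seq totals ran from 18065062 to 48364919 counts per library. The epithelial marker genes KRT8, KRT18, KRT7, KRT19, CDH1 and EPCAM were expressed in all 6 libraries, from 3.75 CPM for EPCAM in 1 control library to 6786 CPM for KRT8 in 1 KO library. They were higher in KO by edgeR at an adjusted p under 0.05, with a KO mean of 563% of control for KRT19, 332% for KRT18, 290.4% for KRT8, 268% for EPCAM, 193% for CDH1 and 107.2% for KRT7. The leukocyte gene CD3E and the fibroblast gene DCN had 0 counts in all 6 libraries, and the alveolar gene SFTPC had at most 4 counts. Of the other alveolar genes, SFTPB had at most 12 counts and NKX2-1 at most 2. The alveolar gene NAPSA was low but higher in KO, at 0.917 ± 0.059 and 1.33 ± 0.19 CPM (SD, n = 3; edgeR adjusted p = 0.027). The endothelial marker CDH5 was at 0.289 ± 0.083 CPM in control and 4.53 ± 0.67 CPM in KO (SD, n = 3), while VWF had at most 2 counts in any library and PECAM1 was not matched by name. The fibroblast gene COL1A1 was at 3.10 ± 0.08 and 3.83 ± 0.27 CPM (SD, n = 3), LUM had at most 16 counts, and the leukocyte genes PTPRC and CD79A had at most 1 and 9. The part of these marker levels in the results was not tested.

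The 688 domains ran from 20020 bp to 245922 bp, with a median of 29716.5 bp, and spanned 28.1 Mb of the 344 Mb under control H3K9me3 peaks. All positions are on the human build hg19. The narrowest member, at chr12:105919752-105939771, was 20020 bp wide and had no KO coverage. The widest peak of 20000 bp or less outside the definition was 19992 bp wide and also had no KO coverage, and the next outside were 19969 bp with 78.1% covered and 19951 bp with none. The next inside, 20042 bp on chromosome 6, had no KO coverage either, and the 20054 bp domain on chromosome 2 was 76.7% covered.

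Chromosome 19 held 197 of the 688 wide domains, which is 28.6% (95% Wilson interval 25.4% to 32.1%) of their number and 40.7% of their length. It held 1.91% of all control H3K9me3 peaks and makes up 1.95% of the genome length. Wide domains lay at 3.33 per Mb on chromosome 19 and covered 19.4% of it. The next most populated chromosomes were chromosome 7 with 65 domains, chromosome 8 with 53, chromosome 5 with 52 and chromosome 2 with 41. Chromosome 22 had 1. The intervals here cover counting error over domains and not replicate error, since each genotype had 1 list per mark. They take domains as independent, although many lie close together.

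From 5000 bp up, the chromosome 19 share was higher in each wider class. It was 1.55% among peaks under 2000 bp, 1.42% from 2000 to 5000 bp, 2.15% from 5000 to 10000 bp and 6.41% from 10000 to 20000 bp. Inside the wide domains it was 14.0% from 20000 to 30000 bp (49 of 349; interval 10.8% to 18.1%), 37.9% from 30000 to 50000 bp (80 of 211; 31.6% to 44.6%) and 53.1% from 50000 bp (68 of 128; 44.5% to 61.6%). The first of these intervals lay below the other 2, and the second reached 44.6% where the third began at 44.5%. The 10 widest domains included 9 on chromosome 19.

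**Figure D1:**
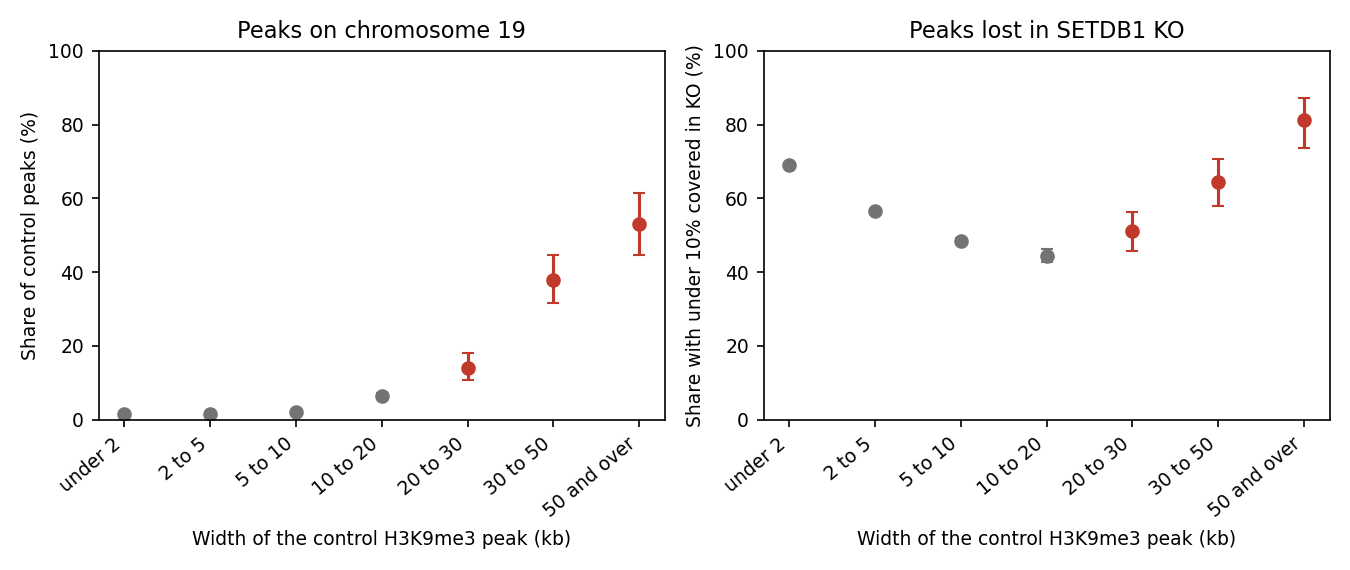
Share of control H3K9me3 peaks on chromosome 19 (left, percent) and share with under 10% of their length covered in KO (right, percent) by peak width in kb; points are shares, bars are 95% Wilson intervals, red marks the wide domains and grey the narrower peaks. The chromosome 19 share climbs to 53.1% in the widest class, and the lost share is lowest at 44.5% for 10 to 20 kb and 81.3% in the widest class.

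In KO, H3K9me3 peaks covered 20.2% of the summed length of the wide domains, against 39.3% of the length of the narrower control peaks. The KO list had fewer peaks than the control list, 53949, but spanned more sequence, 623 Mb, with a median width of 4423 bp against 2303 bp. The part of these differences between the lists in the outcome of single domains was not tested. A domain is called lost here when under 10% of its length lay under KO H3K9me3 peaks, kept when at least 50% did, and partly kept in between. By that rule 418 domains were lost (60.8%; interval 57.1% to 64.3%), 110 were partly kept and 160 were kept (23.3%; 20.3% to 26.6%). The background over all control peaks was 60.5% lost and 35.8% kept, so the lost share of the wide domains as a whole was close to that of all peaks. Most lost domains had no coverage left: 356 of them had 0% in KO. Of the kept domains, 117 were at least 90% covered.

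Within the wide domains, counted over all chromosomes, the lost share was higher in the wider classes. The lost share was 51.0% from 20000 to 30000 bp (45.8% to 56.2%), 64.5% from 30000 to 50000 bp (57.8% to 70.6%) and 81.3% from 50000 bp (73.6% to 87.1%). On chromosome 19 alone these shares were 61.2%, 57.5% and 77.9%, so the second class was not above the first. On the other chromosomes they were 49.3%, 68.7% and 85.0%. Among all control peaks of 10000 to 20000 bp the lost share was 44.5% (42.7% to 46.3%). The narrowest peaks, under 2000 bp, had a lost share of 69.0%, so the relation with width was not monotonic over the whole list.

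**Figure D2:**
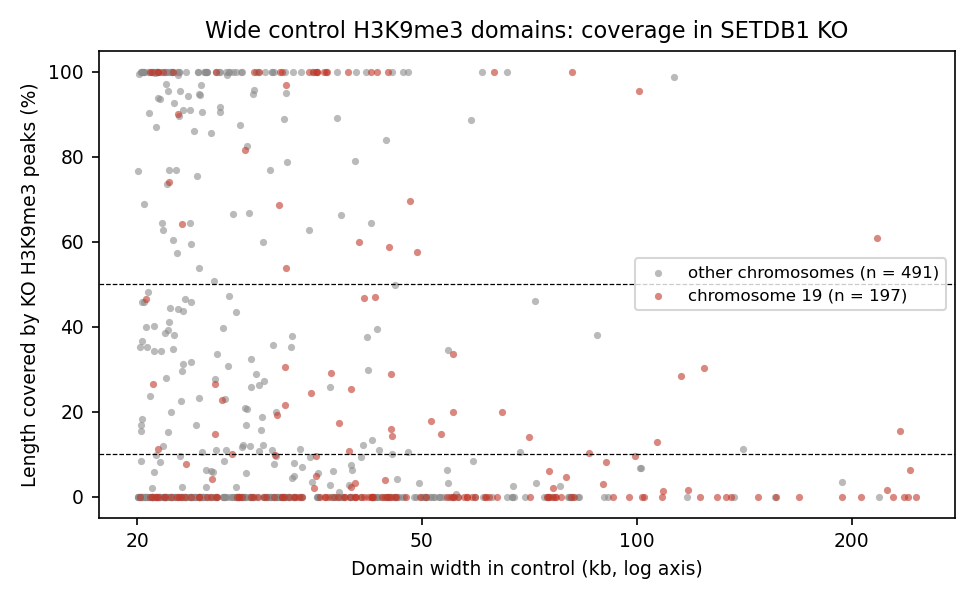
Percent of each wide domain covered by KO H3K9me3 peaks (vertical axis) against its width in control in kb (log axis); each point is 1 domain, red on chromosome 19 (n = 197) and grey elsewhere (n = 491), and dashed lines mark the 10% and 50% thresholds. Most points lie at 0% or near 100%, and 8 domains of 50 kb or wider are above the 50% line.

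On chromosome 19, 129 of 197 domains were lost (65.5%; 58.6% to 71.8%), and on the other chromosomes 289 of 491 were (58.9%; 54.5% to 63.1%). These intervals overlapped. Over all control H3K9me3 peaks the lost share was 74.8% on chromosome 19 and 60.2% elsewhere. The wide domains of chromosome 19 were 15.7% covered in KO, and those elsewhere 23.3%. Over the whole of chromosome 19, H3K9me3 peaks spanned 18.96 Mb in control and 4.85 Mb in KO, whereas on chromosome 2 they spanned 34.8 Mb and 52.2 Mb. On the X chromosome all 17 wide domains were lost with 0% covered, although the X chromosome as a whole went from 9.06 Mb under H3K9me3 peaks in control to 40.3 Mb in KO. On chromosome 15, 9 of 19 wide domains were kept, and on chromosome 16, 12 of 31 were.

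The flanks behaved like the domains. Within 50 kb on either side, lost domains had a median of 70.3% of the flank under control H3K9me3 and 0% under KO H3K9me3. Kept domains had 64.3% in control and 93.3% in KO. Of the 160 kept domains, 111 lay inside a KO peak wider than the domain itself, and the widest KO peak touching a kept domain had a median width of 70591 bp. The largest reached 588619 bp.

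The compartment signal from Hi-C, a score in 100 kb bins that separates open from closed chromatin, was read with positive values as A and the rest as B. H3K27ac control peaks covered 6.94% of A bins and 0.437% of B bins. Of the 688 domains, 229 were A in control, 346 were B and 113 lay in bins without a signal in the 4 libraries, 39 of these on chromosome 19. Chromosome 19 domains were B in 150 of the 158 with a signal. On the other chromosomes 221 were A and 196 were B. In all control H3K9me3 peaks with a signal, 47.0% were A.

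Compartment and outcome went together. Lost domains were 173 of the 229 in A (75.5%; 69.6% to 80.7%) and 156 of the 346 in B (45.1%; 39.9% to 50.4%). Kept domains were 16 in A and 135 in B. The lost share of all control H3K9me3 peaks by compartment is not given here, so the gap is not shown to be particular to wide domains. Away from chromosome 19 the gap was wider, with 75.6% of A domains and 36.2% of B domains lost. On chromosome 19, 56.7% of the 150 B domains were lost. Of the 113 domains without a signal, 89 were lost (78.8%).

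Most lost B domains moved into A and few kept B domains did. Of the 156 lost B domains, 110 had a positive mean signal in KO (70.5%; 62.9% to 77.1%), against 3 of 135 kept B domains (2.22%; 0.759% to 6.33%). The background was 13.1% of all B bins. Neighbouring domains can share a 100 kb bin, so the intervals, which take domains as independent, are too narrow. In 1 stretch of chromosome 19, 0 of 29 B domains switched, and in another 15 of 15 did. On chromosome 19, 51 of 85 lost B domains switched, and elsewhere 59 of 71 did. In the opposite direction, 5 of 173 lost A domains and 4 of 16 kept A domains became B, where the background was 10.8% of A bins. Partly kept domains lay between, with 18 of 55 B domains switching (32.7%).

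The switch was seen in every Hi-C library. Over the lost B domains the length-weighted mean signal was -0.872 and -0.912 in the 2 control libraries and 0.275 and 0.270 in the 2 KO libraries. Both KO libraries were above both control libraries, and 150 of the 156 domains had the KO values above the control values in all libraries. Over the kept B domains the mean was -0.841 and -0.833 in control and -0.857 and -0.853 in KO, a shift of -0.018. Lost A domains were at 0.545 and 0.549 in control and 0.792 and 0.776 in KO. Over all 575 wide domains with a signal, the length-weighted mean difference was 0.594, and it was 0.371 with each domain counted once by the bin at its midpoint. For the first of these, a two-sided exact permutation test of 2 against 2 libraries gave p = 0.333, the smallest that this design allows.

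**Figure D3:**
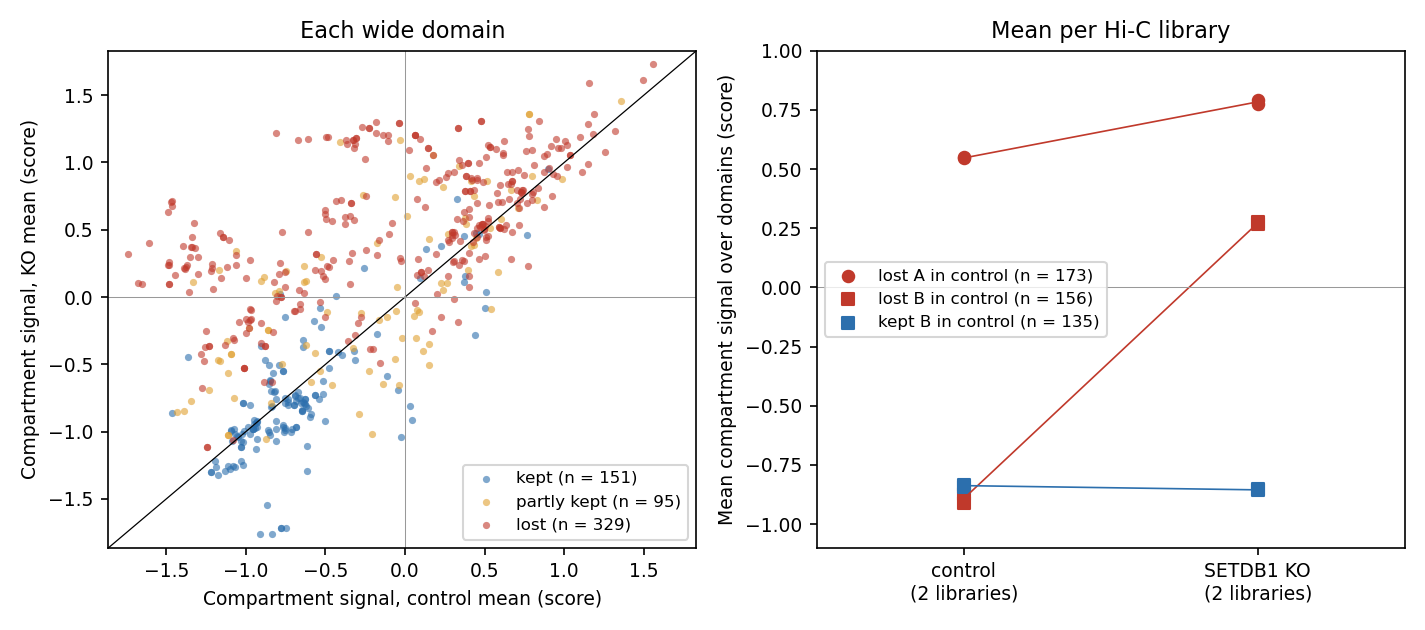
Compartment signal (score, positive is A). Left, KO mean against control mean for each wide domain with a signal, coloured by outcome, with the line of equality; right, length-weighted mean over domains in each of the 2 control and 2 KO libraries, with lines joining the genotype means. The upper left quadrant, B in control and A in KO, holds 110 lost domains and 3 kept domains, and lost B domains go from near -0.9 to 0.27 while kept B domains stay near -0.85.

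In a limma fit over all 26503 bins with a signal, 424 of the 577 bins that touch a wide domain were called changed at an adjusted p under 0.05 (73.5%), where the background was 58.8% of all bins. Of them, 300 were higher in KO (52.0%, background 21.5%) and 124 lower (21.5%, background 37.3%). Bins touching lost domains alone were higher in 207 of 311 and lower in 28, with a median difference of 0.32. Among these, the B bins were higher in 122 of 130, with a median difference of 0.96. Bins touching kept domains alone were higher in 28 of 149 and lower in 69, with a median difference of -0.08. Of these bins 132 were B, and over all B bins 27.1% were higher and 42.6% lower, so their calls were near the background. On chromosome 19, 72 of 75 bins touching lost domains alone were higher.

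Other marks appeared in the lost domains. A peak is called KO-only when it touches no peak of the same mark in the control list. KO-only H3K4me3 peaks lay in 207 of the 418 lost domains (49.5%; 44.8% to 54.3%), against 11 of 160 kept domains (6.88%; 3.88% to 11.9%), with a background of 3.48% over all control H3K9me3 peaks. KO-only H3K27ac peaks lay in 175 lost domains (41.9%; 37.2% to 46.7%) and 6 kept domains (3.75%), with a background of 2.48%. KO-only CTCF peaks lay in 124 lost domains (29.7%; 25.5% to 34.2%) and in 63 kept domains (39.4%; 32.1% to 47.1%), with a background of 3.04%. KO-only H3K27me3 peaks lay in 118 lost domains (28.2%; 24.1% to 32.7%) and 35 kept domains (21.9%; 16.2% to 28.9%), with a background of 3.64%. The background peaks are mostly far narrower than the domains, so the same counts are given per Mb.

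Per Mb, lost domains held 31.1 KO-only H3K4me3 peaks, kept domains 3.21 and the genome 6.90. For KO-only H3K27ac the values were 26.1 in lost domains, 1.41 in kept domains and 6.08 in the genome. KO-only CTCF lay at 11.3 per Mb in lost domains, 17.7 in kept domains and 6.97 in the genome. That order was the one found on chromosome 19, at 11.2 in lost and 26.7 in kept domains. It was not found in A domains, at 9.31 in lost domains and 2.32 in kept ones (1 peak), or in B domains of the other chromosomes, at 18.9 and 16.1. Lost control peaks of 10000 to 20000 bp held 20.95 KO-only H3K4me3 peaks per Mb and 15.98 of H3K27ac, below the lost wide domains for both marks. Lost wide domains of chromosome 19 held 46.2 and 39.7. Those of the other chromosomes held 19.6 and 15.79, no more than the narrower peaks, which were not split by chromosome. KO-only H3K27me3 lay at 14.4 per Mb in lost domains, 17.1 in kept domains and 6.44 in the genome. The lost value was also the lower one on the other chromosomes, at 14.5 and 20.2, and in domains without a signal, at 18.1 and 43.4. It was higher than the kept value in A domains, at 4.66 and 0, and in B domains, at 18.9 and 16.8. The same held on chromosome 19, at 14.3 and 10.2. Counted over all domains, the 2 activating marks were denser in lost than in kept domains, and CTCF and H3K27me3 were not.

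**Figure D4:**
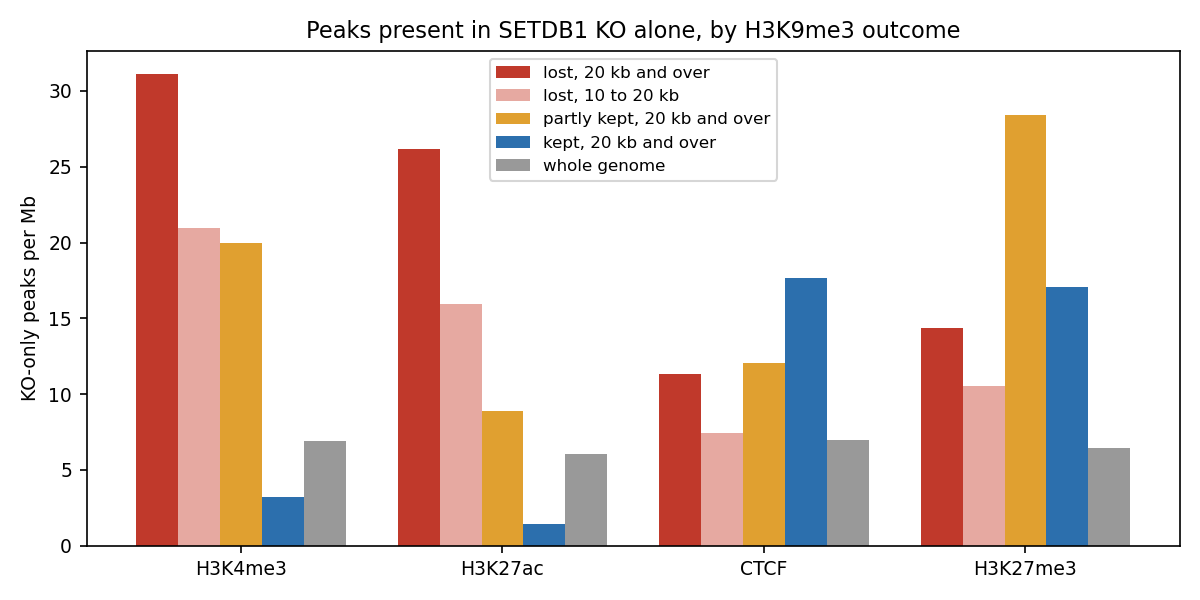
KO-only peaks per Mb for 4 marks, by H3K9me3 outcome of the wide domains, with lost peaks of 10 to 20 kb and the whole genome beside them; bars are single values from 1 list per genotype and start at 0. H3K4me3 and H3K27ac are highest in lost domains, at 31.1 and 26.1 per Mb, and H3K27me3 is highest in partly kept domains, at 28.4 per Mb.

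Counting all peaks, those of H3K4me3 in the lost domains went from 457 in control to 983 in KO, a ratio of 2.15 against 1.22 genome-wide. H3K27ac went from 313 to 798, a ratio of 2.55 against 1.06. These ratios were not particular to lost domains. In partly kept domains they were 2.61 for H3K4me3 and 2.46 for H3K27ac. In kept domains they were 2.75 and 2.67, from small counts (8 to 22 and 3 to 8 peaks). In lost domains, CTCF and H3K27me3 changed less. CTCF went from 196 to 245, a ratio of 1.25 against 1.44. H3K27me3 went from 486 to 525, a ratio of 1.08, where the genome-wide ratio was 0.743. Coverage of the lost domains by H3K4me3 peaks went from 3.59% to 8.35% of their length, and by H3K27ac peaks from 1.92% to 7.29%.

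The gain was not limited to domains that already held a promoter mark. Of the 199 lost domains with no control H3K4me3 peak, 93 had at least 1 in KO, and of the 219 that had one, 108 had more in KO and 31 fewer. Of the 243 lost domains with no control H3K27ac peak, 81 had at least 1 in KO. Both KO-only H3K4me3 and KO-only H3K27ac lay in 127 lost domains. None of the 4 marks had a KO-only peak in 99 lost domains, and 96 had no KO peak of H3K4me3 or H3K27ac at all. Within the lost domains, 43.9% of KO-only H3K4me3 peaks touched a KO H3K27ac peak, against 33.2% genome-wide. KO-only CTCF peaks in lost domains touched a KO H3K4me3 peak in 79 of 215 cases, against 4019 of 21158 genome-wide.

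Counted over all chromosomes, the increase in peaks was larger in lost B than in lost A domains. In the 156 lost B domains H3K27ac peaks went from 126 to 465 and H3K4me3 peaks from 223 to 607. In the 173 lost A domains H3K27ac peaks went from 164 to 244 and H3K4me3 peaks from 180 to 243. KO-only H3K4me3 reached 43.5 peaks per Mb in lost B domains and 15.2 in lost A domains. Away from chromosome 19, H3K27ac peaks went from 28 to 89 in 71 lost B domains and from 158 to 234 in 167 lost A domains. Their ratios were 3.18 and 1.48, but KO-only H3K27ac lay at 18.3 and 16.5 per Mb. The H3K27ac contrast was thus small there by KO-only peaks per Mb. KO-only H3K4me3 there lay at 29.95 and 15.7 per Mb. Within lost B domains, those that switched to A and those that stayed in B held KO-only H3K4me3 in 72 of 110 (65.5%) and 30 of 46 (65.2%). Per Mb, the 46 that stayed in B held 60.9 KO-only H3K4me3 peaks and the 110 that switched held 37.9. A KO-only CTCF peak lay in 53 of the 110 that switched (48.2%) and in 14 of the 46 that stayed (30.4%). Chromosome 19 held 34 of the 46 that stayed and 51 of the 110 that switched. Lost B domains held 50.6 KO-only H3K4me3 peaks per Mb on chromosome 19 and 29.95 elsewhere. They held a KO-only CTCF peak in 41 of 85 domains on chromosome 19 and 26 of 71 elsewhere. Switched and unswitched domains were not compared within chromosome 19, so these contrasts are not shown to go with switching itself.

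CTCF differed by chromosome. In lost domains of chromosome 19, CTCF peaks went from 131 in control to 103 in KO. In lost domains elsewhere they went from 65 to 142. H3K4me3 peaks were more numerous in KO in both places, from 215 to 560 on chromosome 19 and from 242 to 423 elsewhere, and H3K27ac from 120 to 450 and from 193 to 348. The CTCF split was not limited to lost domains. In kept domains CTCF peaks went from 67 to 53 on chromosome 19 and from 36 to 49 elsewhere. The CTCF fall in lost domains of chromosome 19 lay in its B domains, from 127 to 77. In lost B domains elsewhere CTCF peaks went from 28 to 69.

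Promoter marks in control sat at the edges of the domains that were lost. In the first 5 kb outside lost domains, control H3K4me3 peaks covered a mean of 10.4% on the left and 10.9% on the right, against 2.71% in the middle 50% of the domain and 4.65% from 5 to 100 kb outside. In KO the middle was at 5.50%. H3K27ac in the middle was 1.58% in control and 5.68% in KO. At kept domains control H3K4me3 covered 0.565% on the left, 0.680% on the right, 0.213% in the middle and 0.817% from 5 to 100 kb outside.

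**Figure D5:**
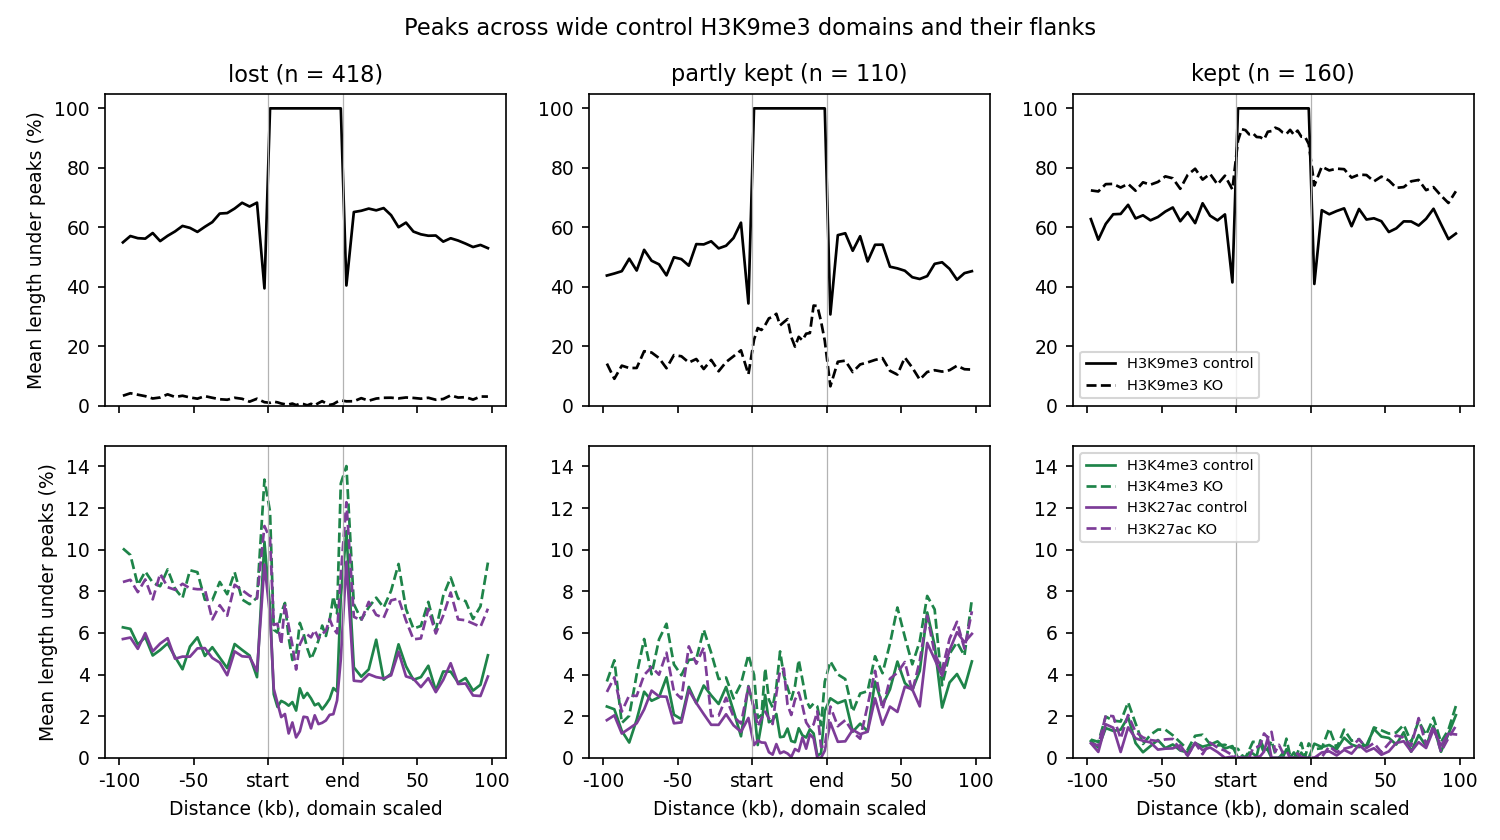
Mean percent of length under peaks across wide domains scaled to 1 width and 100 kb on either side in 5 kb steps, for lost, partly kept and kept domains; the upper row shows H3K9me3 and the lower row H3K4me3 (green) and H3K27ac (purple), solid in control and dashed in KO. KO H3K9me3 is at or below 4.21% throughout lost domains and their flanks and at or above 68.2% for kept domains, and H3K4me3 coverage is highest at the edges of lost domains.

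Partly kept domains carried the most H3K27me3. H3K27me3 peaks covered 40.2% of their length in control and 66.4% in KO, against 7.91% and 10.8% in lost domains and 20.4% and 23.7% in kept domains. Genome-wide H3K27me3 coverage went from 12.2% to 9.37%. The rise was not seen in partly kept A domains, at 78.7% in control and 77.0% in KO. Partly kept B domains went from 28.7% to 63.9%, and those without a signal from 4.70% to 52.4%. The H3K9me3 that partly kept domains retained in KO lay under KO H3K27me3 peaks over 93.1% of its 1.03 Mb, while 57.6% of the part they lost did. Control H3K27me3 peaks already covered 52.9% of the retained part and 36.0% of the lost part. For kept domains the share of retained H3K9me3 under KO H3K27me3 was 19.9%, close to the 19.1% found for all retained control H3K9me3. The part that kept domains lost was 59.0% covered, near the value for partly kept domains. In lost domains the retained 0.163 Mb was 79.7% covered and the lost part 10.2%. High KO H3K27me3 over retained H3K9me3 was thus not limited to partly kept domains. At least 50% of the length lay under KO H3K27me3 in 85 of the 110 partly kept domains, 26 of the 418 lost domains and 33 of the 160 kept domains.

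The 197 domains of chromosome 19 fell into 18 runs when neighbours up to 500 kb apart were joined. The 5 runs with the most domains differed in outcome. At chr19:21202898-24501274, 36 domains included 31 lost and 0 kept, and H3K4me3 peaks inside them went from 12 to 152 and H3K27ac peaks from 9 to 94. None of its 29 B domains switched to A, although the mean signal went from -1.03 and -1.05 in control to -0.284 and -0.297 in KO. H3K27me3 peaks there went from 5 to 71.

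The run at chr19:52064889-54276199 held 25 domains, 19 of them lost and 0 kept, and 24 of its 25 B domains switched to A. Its mean signal was -1.11 and -1.16 in control and 0.237 and 0.236 in KO, and its H3K4me3 peaks went from 44 to 146. The run at chr19:36665173-38387254 held 15 domains that took up 91.5% of its span. All 15 were B in control and A in KO, 13 were lost, and H3K27ac peaks went from 20 to 114 while CTCF peaks went from 36 to 17. The run at chr19:56236885-58962411 was mixed, with 15 of 29 domains lost, 6 kept and 7 of 27 B domains switching.

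The run at chr19:28009710-29600146 had the opposite outcome. Of its 25 domains 20 were kept and 3 lost, KO H3K9me3 covered 76.1% of their length, and none of the 24 B domains switched. The mean signal was -1.07 and -1.03 in control and -1.03 in both KO libraries. H3K4me3 peaks in it numbered 3 in control and 5 in KO. The run next but one along the chromosome, chr19:31407859-32400008, had all 9 domains kept with 100% of their length covered and 0 H3K4me3 peaks in either genotype.

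The widest domain, at chr19:37293298-37539219, was 245.9 kb long and had 0% coverage in KO. Its signal was -1.61 and -1.74 in control and 0.0929 and 0.109 in KO. H3K4me3 peaks in it went from 3 to 14, H3K27ac peaks from 0 to 10 and CTCF peaks from 11 to 4. The second widest, at chr19:52314494-52556209, was 241.7 kb long, was 6.26% covered in KO and went from 5 to 25 H3K27ac peaks. The other domains among the 5 widest lost ones, at chr19:12232108-12472172, chr19:58421428-58658053 and chr19:58012006-58240755, had 0% coverage. In the last of these, H3K4me3 peaks numbered 10 in control and 12 in KO and H3K27ac peaks 8 in both genotypes, while the signal was -0.676 and -0.832 in control and 0.0478 and 0.100 in KO.

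The single domain outside chromosome 19 among the 10 widest was at chr5:140609756-140828318, 218.6 kb long and 0% covered in KO. CTCF peaks in it went from 3 to 21, H3K4me3 peaks from 11 to 25 and H3K27me3 peaks from 27 to 5. Its signal was -0.0903 and -0.123 in control and 1.16 and 1.25 in KO. The most KO-only H3K4me3 peaks in 1 lost domain, 18, were at chr19:23927533-24029929, which had 1 H3K4me3 peak and 0 H3K27ac peaks in control and 19 of each in KO. At chr19:22944777-23053723, H3K27me3 went from 0% to 74.3% of the length and 14 KO-only H3K4me3 peaks appeared.

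Kept domains of great width were few. The widest was at chr19:57257373-57474683, 217.3 kb long, and was 60.9% covered in KO in pieces of at most 18.1 kb, while H3K27me3 peaks went from 0% to 94.97% of its length. The next, at chr7:70811533-70924359, was 98.9% covered by a KO peak of 226.1 kb. It had 0 H3K4me3, H3K27ac and CTCF peaks in both genotypes. The domains at chr19:28776252-28877163, chr19:31988653-32069717 and chr5:4074242-4140016 were 95.4%, 100% and 100% covered and likewise had 0 H3K4me3 and H3K27ac peaks in both genotypes.

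TAD boundaries, the borders of Hi-C contact domains, were fewer per Mb inside wide domains than in the genome in control. They numbered 43 in control and 65 in KO within all 688, and 28 and 48 within the lost ones. Per Mb this was 1.53 and 2.31 in all wide domains and 1.48 and 2.53 in lost domains, against 2.31 and 2.37 in the genome. Kept domains held 1 boundary in control and 2 in KO, which is 0.201 and 0.402 per Mb.

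Zinc finger genes on chromosome 19, named ZNF with a number, were taken as the gene class known for these clusters. Their positions relative to the domains were not analysed here, since the annotation used was on another build and gave chromosome alone. Of 267 tested, 244 were higher in KO (91.4%) and 4 lower at an adjusted p under 0.05 by edgeR. The background was 62.8% of all 17767 tested genes changed, 32.8% higher and 30% lower. The median log2 fold change of the 267 genes was 1.83, against 0.00 for all tested genes and 0.20 for the 870 other tested genes of chromosome 19, of which 425 were higher. In 37 of the 267 genes, and in 125 of all 17767, the control libraries had 0 counts. Such genes passed the count filter through KO alone and could not be called lower. Genes with few control counts, such as ZNF880 and ZNF701 with 12 each over the control group, also passed through KO. The number of such genes was not determined. With no filter on low counts, 254 of 288 chromosome 19 ZNF genes were higher. The median of the 267 was the same with the 37 at the bound that 3 counts over the control group allow. Related zinc finger genes share sequence, so reads may be divided uncertainly among them.

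ZNF91, a KRAB zinc finger repressor known for silencing SVA retrotransposons, had the largest change among those with enough counts. It was at 0.127, 0.442 and 0.241 CPM in the control libraries and 262, 235 and 244 CPM in the KO libraries. ZNF28 was at 0.510, 0.497 and 0.618 CPM in control and 104, 96.2 and 102 CPM in KO. ZNF468 had a mean of 0.369 CPM in control and 76.7 CPM in KO, ZNF880 had 0.165 and 39.5 CPM, and ZNF701 had 0.168 and 31.7 CPM. The log2 fold changes of the 5 genes ran from 7.497 to 9.895 (edgeR, adjusted p = 1.34e-24 or less). They were chosen for the largest change among genes already called, so these values are a description and no separate support. Their control means were at most 0.542 CPM, so they reached the minimum mean of 5 CPM through the KO libraries.

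Of 18 genes for the heterochromatin machinery, 8 were higher (44.4%) and 5 lower (27.8%) in KO by edgeR, with a median log2 fold change of 0.09. The shares over all tested genes were 32.8% and 30%, so these counts were near the background. ATF7IP, the binding partner that stabilises SETDB1, was at 68.1, 61.7 and 66.0 CPM in control and 316, 298 and 291 CPM in KO (log2 fold change 2.21 ± 0.05 SE, adjusted p = 1.96e-24). The H3K9 demethylase gene KDM4B went from 10.2 ± 0.8 to 19.6 ± 1.3 CPM (SD, n = 3; log2 fold change 0.95, edgeR adjusted p = 3.16e-11). KDM4D, of the same family, went from 0.901 ± 0.239 to 1.498 ± 0.144 CPM (SD, n = 3; log2 fold change 0.76, edgeR adjusted p = 0.00434). TRIM28 was at 599 ± 40 CPM in control and 575 ± 27 CPM in KO (SD, n = 3) and did not pass the test. SETDB2, a related methyltransferase gene, was at 9.33 ± 0.63 and 9.81 ± 0.53 CPM and did not pass either.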

How the data were processed

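The domains and gene lists were chosen with earlier results of these data known. RNA-seq values were whole-number counts per gene, as the authors deposited them. The peak and TAD files held positions alone, as deposited, so the depth behind each peak is unknown; the compartment table held a deposited score per 100 kb bin and library, whose method is not given in the sources used here. The submitters' processing notes name hg19, STAR 2.6.1c, edgeR 3.30.0, Bowtie2 2.2.3, SAMtools 1.5, Picard and MACS2. How libraries were pooled for peak lists is not given in the sources used here. Of 62486 gene IDs, 93.8% matched a symbol.

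Overlaps needed 1 bp and were computed in Python 3.11.15 (numpy 2.4.6, pandas 2.3.3, scipy 1.17.1). A domain's compartment was its length-weighted mean score over bins with a value in all 4 libraries (26503 of 30376). Counts were tested with edgeR 4.0.16 in R 4.3.3 (TMM, filterByExpr, robust quasi-likelihood, genotype alone) and bins with limma 3.58.1, both with Benjamini-Hochberg adjustment at 0.05. Both fits were tested on simulated data. DESeq2 1.42.0, other scalings, width, coverage and overlap rules, a replicate block and leaving out replicates were alternatives.

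Named domains were the 10 widest, the 5 widest lost, the 5 widest kept, the 5 lost with most KO-only H3K4me3 and the 5 chromosome 19 runs with most domains; the run with all 9 domains kept was named after its values were seen. Named genes were SETDB1, heterochromatin genes past the threshold by 1.5-fold, and the 5 chromosome 19 ZNF genes with the largest change, a mean of at least 5 CPM and 10 counts in the lower group. TRIM28 and SETDB2 were named after their values were seen. Sequences were not used here. Input libraries were not used here. No per-sample column was unmapped.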

Additional observations from a re-analysis of the deposited data

How the results depend on the processing

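Of 99 alternative values, 77 kept their direction and side of the threshold or stayed within their error, 22 moved and 0 reversed. Counts of bins and of genes had no error, and were taken as unmoved within 1.5-fold of the main count. With a width of at least 15000 bp, the chromosome 19 share was 18.4%, the length covered in KO 25.6%, the lost share 53.5%, the share of lost domains in A 61.3%, and the shares of lost domains with a KO-only peak 39.8% for H3K4me3, 33.2% for H3K27ac, 21.3% for CTCF and 21.8% for H3K27me3. With at least 30000 bp they were 43.7%, 14.7%, 70.8%, 37.9%, 56.3%, 51.7%, 38.3% and 37.9% in the same order. With KO H3K9me3 peaks of at least 5000 bp alone, the length covered was 17.1% and the lost share 69.8%. Calling lost at 0% gave a lost share of 51.7% and KO-only H3K27me3 in 23.6% of lost domains, and calling it under 25% gave a lost share of 68.3%. With at least 50% of a bin under wide domains, 150 of 171 bins were called, a smaller count but a share of 87.7% against 73.5% in the main setting. The mean compartment difference was 0.371 by the bin at each domain's midpoint and 0.839 with columns scaled to unit SD.

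Leaving out 1 library at a time gave 370 to 424 changed bins, 239 to 247 higher ZNF genes, a SETDB1 log2 fold change of -0.86 to -0.79, a mean compartment difference of 0.587 to 0.602 and 52.3% to 52.9% of lost domains in A. With the replicate block, 431 bins were changed, 245 ZNF genes were higher and SETDB1 was at -0.82. The numbers were not taken to pair libraries: deviations of same-numbered RNA-seq libraries correlated at 0.112, 0.064 and 0.047, 5 of 6 correlating best with their own number, as a hint from the data, and Hi-C at -0.003. Peak lists have no replicate value, their depth is unknown, and genes were not joined to domains here.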
